A study of Mus musculus with 8 samples.

Results

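Serum response factor (SRF), its ternary complex factor partners and the MEF2 factors were followed in cultured mouse hippocampal neurons held in high potassium. The 9 genes were listed by name: Srf, the ternary complex factor genes Elk1, Elk3 and Elk4, the related Ets2, and the MEF2 genes Mef2a, Mef2b, Mef2c and Mef2d. Of these, 8 had a probe set annotated to them alone, among 22180 genes so measured, each represented by its probe set of highest mean. Mef2b shared its probe sets with the neighbouring Borcs8. The neurons came from C57BL/6J E18.5 embryos (days of gestation) and were cultured for 11 days in medium that received AraC, which acts against dividing cells. Exposure to 55 mM KCl for 4 h (4 arrays) was set against no treatment (4 arrays), and the arrays of both groups carry the replicate numbers 1 to 4. Each array has a mouse number of its own in the labels. All values below are log2 probe set values from Affymetrix arrays, normalized by the authors. A difference of 1 on this scale is a doubling, and levels of different probe sets are not comparable with each other.

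SRF is a MADS-box transcription factor that binds the CArG box as a dimer. It works with partners of separate kinds. The ternary complex factors are ETS-domain proteins that dock beside SRF, are phosphorylated by MAP kinases and serve immediate-early genes such as Fos, whereas the myocardin-related factors MRTF-A and MRTF-B sense free actin and serve genes of the cytoskeleton. MEF2 proteins share the MADS fold, are held in check by class IIa histone deacetylases, and are released by calcium through calcineurin and the CaM kinases. In hippocampal neurons both families link calcium entry to gene expression, with known roles in early gene induction, neurite growth and the number of excitatory synapses.

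The promoter of Srf is shown first because it carries matches to the binding motifs of SRF and of the ETS factors. It spans chr17:46556113-46556412 on the minus strand (RefSeq, GRCm38.p6), from 250 bases before to 50 bases after the annotated start. Capitals mark, in order, the ETS core CCGGAA and the 2 CArG boxes.
Srf promoter: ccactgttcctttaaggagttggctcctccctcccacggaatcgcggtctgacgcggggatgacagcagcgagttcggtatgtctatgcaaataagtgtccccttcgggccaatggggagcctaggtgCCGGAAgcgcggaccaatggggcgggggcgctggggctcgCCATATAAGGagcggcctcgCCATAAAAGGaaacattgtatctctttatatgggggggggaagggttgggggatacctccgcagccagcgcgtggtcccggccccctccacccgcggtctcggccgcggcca

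The CArG box was searched as CC, then 6 bases that are each A or T, then GG, and the MEF2 site by its usual consensus, on both strands. The other motifs searched were the ETS core CCGGAA and the cAMP response element TGACGTCA. All 9 genes had promoter windows, 13 in all, since Elk4 and Mef2c have 3 annotated starts each. Srf was the 1 gene of the 9 with a CArG box, at 82 to 73 and 62 to 53 bases before its start, and 1.63% of all 32851 promoter windows hold one. The ETS core stood in windows of Srf (122 to 117 bases before the start), Elk4 (68 to 63) and Mef2a (27 to 22), against 14.9% of all windows. A MEF2 site lay across the start of Mef2a and in no other window of the 9 genes, against 3.19% of all windows. None of the 13 windows held TGACGTCA, which 1.79% of all windows do. These are letter matches in one short window per start and say nothing of binding. The windows of Elk4 (chr1:132007542-132007567, plus strand) and Mef2a (chr7:67372841-67372870, minus strand) with the motif in capitals are these.
Elk4 ETS core: ggcccctcccCCGGAAgtgacgctcg
Mef2a MEF2 site: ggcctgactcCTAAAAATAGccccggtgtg

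**Figure D1:**
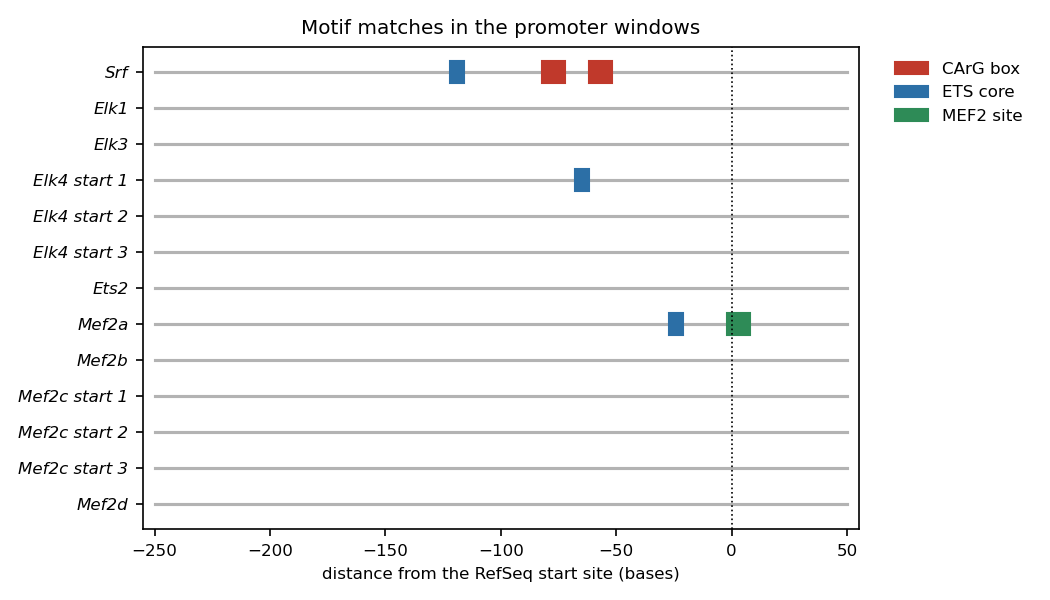
Motif matches in the 13 promoter windows of the 9 genes, by distance from the RefSeq start site in bases (dotted line), with coloured blocks for the CArG box, the ETS core and the MEF2 site. Srf has 2 CArG boxes with an ETS core further upstream, Elk4 has 1 ETS core at the first of its 3 starts, and Mef2a has an ETS core and a MEF2 site.

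Srf rose after KCl and was the 1 of 8 measured genes to pass the test (limma, Benjamini-Hochberg adjusted p under 0.05 over 22180 genes). None fell. Over all genes 1.34% were called higher and 1.02% lower, so 1 in 8 rests on a single gene. Srf stood at 8.37, 8.68, 8.23 and 8.05 in KCl arrays numbered 1 to 4, against 7.38, 7.50, 7.06 and 7.06 in untreated arrays. Every KCl array lay above every untreated array, and the 4 same-numbered pairs differed by nearly the same amount, 0.99, 1.18, 1.17 and 0.99. The mean was 8.33 ± 0.27 in KCl arrays and 7.25 ± 0.22 in untreated arrays (SD, n = 4 each), a 2.12-fold rise (log2 change 1.08, SE 0.162, 95% interval 0.71 to 1.45, limma adjusted p = 0.0154). Of all genes, 0.762% had a smaller p. Within both groups the arrays numbered 1 and 2 stood above or level with those numbered 3 and 4. A like split was seen in the means of cytoskeletal genes and of mural cell and fibroblast markers, and in the endothelial gene Kdr (values below). Its part in the Srf level was not tested. Without untreated replicate 3 the adjusted p was 0.0501 with a log2 change of 1.02, and in the other 7 fits that left out 1 array it was 0.0257 to 0.0492.

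With the replicate number as a block, the same gene passed (adjusted p = 0.00396, SE 0.096) and no other of the 8 did, while the calls over all genes grew to 2.43% higher and 2.01% lower. Before adjustment, Srf and Elk4 (2 of the 8 genes) had a limma p under 0.05, as had 2888 of all 22180 (13%). The median log2 change was 0.25 over the 8 genes and -0.01 over all genes.

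**Figure D2:**
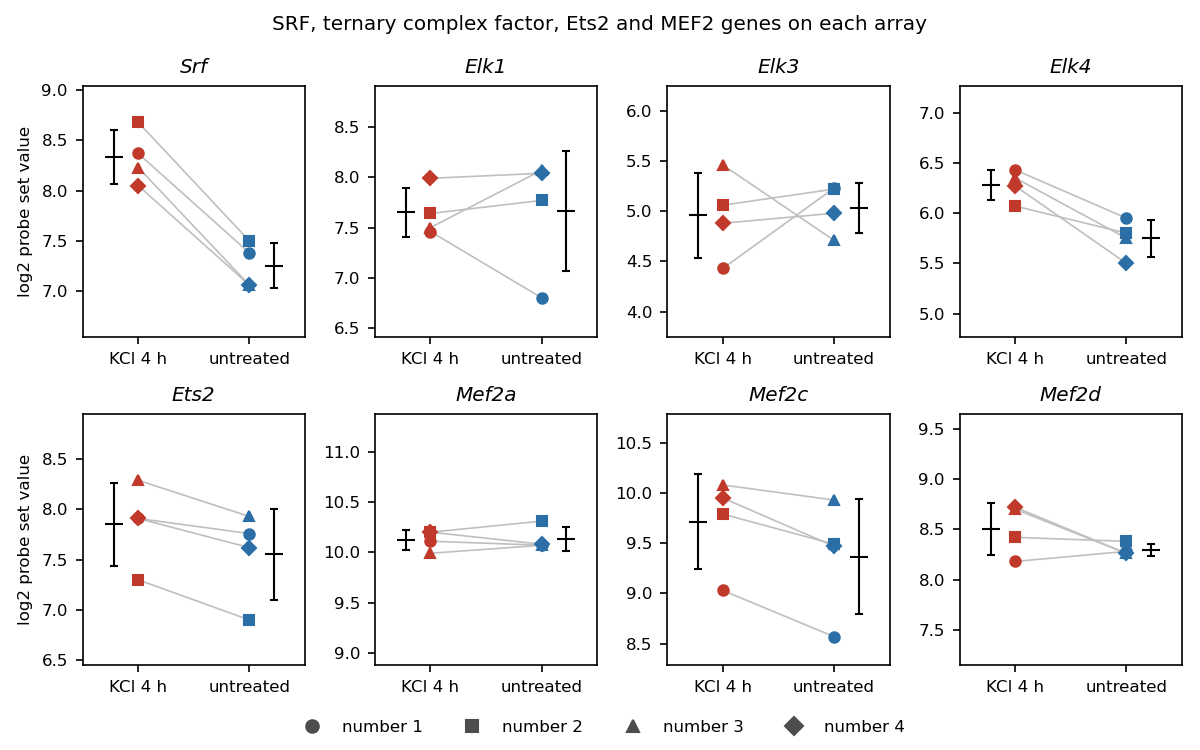
Log2 probe set values of the 8 measured genes on each array, KCl 4 h at the left and untreated at the right of each panel, with grey lines joining same-numbered arrays and black bars giving the mean and SD (n = 4). Each panel spans 2.5 log2 units; the groups are apart for Srf and Elk4 and overlap for the other 6 genes.

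Among the ternary complex factors, Elk4, also called SAP-1, stood higher on every KCl array but missed the threshold. It stood at 6.43, 6.07, 6.35 and 6.27 in KCl arrays and at 5.95, 5.80, 5.75 and 5.50 in untreated arrays. The lowest KCl array (number 2) was above the highest untreated array (number 1), and all 4 pairs were higher, by 0.27 to 0.76. The groups did not overlap for 2 of the 8 genes, Srf and Elk4, both with KCl above, and for none with KCl below, against 3.83% of all genes above and 4.33% below. Elk4 averaged 6.28 ± 0.15 in KCl arrays and 5.75 ± 0.185 in untreated arrays (SD, n = 4 each), which is 1.44-fold (log2 change 0.53, SE 0.123, 95% interval 0.25 to 0.81, limma adjusted p = 0.0707). With quantile normalization repeated it passed (log2 change 0.62, adjusted p = 0.0298). Its adjusted p was 0.0587 to 0.183 with single arrays left out, 0.0539 with the replicate block and 0.255 with trended and robust moderation.

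Elk1, the best studied ternary complex factor, showed no common direction. It stood at 7.46, 7.64, 7.50 and 7.99 in KCl arrays and at 6.80, 7.77, 8.07 and 8.04 in untreated arrays. Pair 1 was higher by 0.67 and the other 3 pairs were lower, pair 3 by as much as -0.57. The log2 change was -0.02 (SE 0.278, 95% interval -0.65 to 0.62, limma adjusted p = 0.994).

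Elk3, also called Net, which can act as a repressor, stood at 4.43, 5.06, 5.46 and 4.88 in KCl arrays and at 5.23, 5.22, 4.71 and 4.98 in untreated arrays. The groups overlapped fully, with pair 1 lower (-0.80) and pair 3 higher (0.75). Its log2 change was -0.07 (SE 0.218, 95% interval -0.57 to 0.42, limma adjusted p = 0.963).

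Ets2, an ETS factor outside the ternary complex subfamily and likewise a MAP kinase substrate, stood at 7.91, 7.30, 8.29 and 7.91 in KCl arrays and at 7.76, 6.90, 7.93 and 7.62 in untreated arrays. Each KCl array was above its same-numbered partner, by 0.15, 0.39, 0.36 and 0.29, but the arrays numbered 2 were lowest in both groups, and the groups overlapped. Its log2 change was 0.30 (SE 0.265, 95% interval -0.31 to 0.90, limma adjusted p = 0.789), with an SE of 0.095 and an adjusted p of 0.158 under the replicate block.

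**Figure D3:**
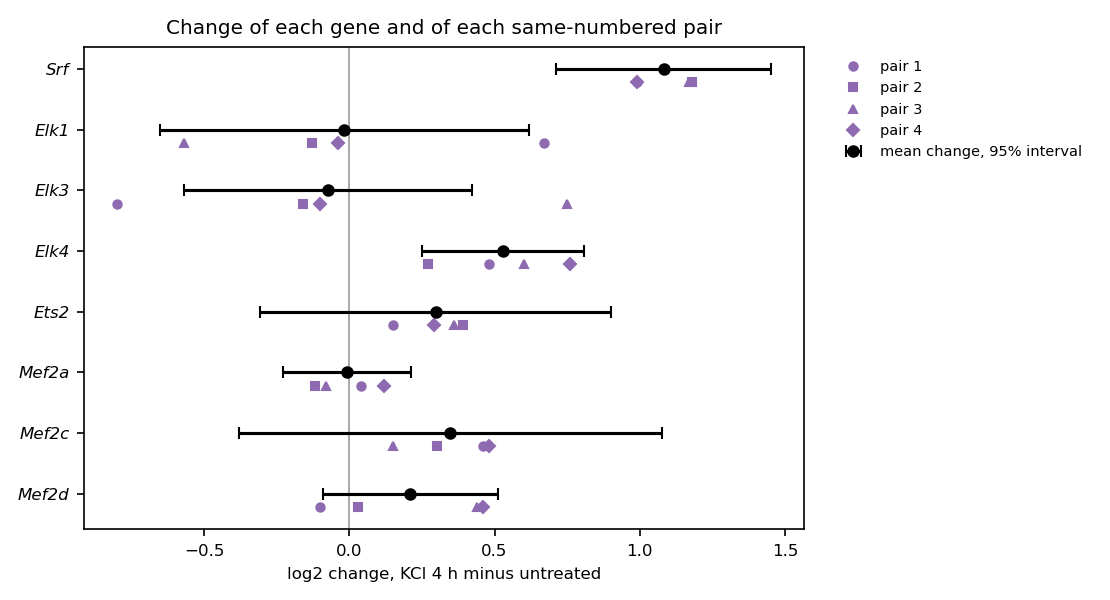
Log2 change (KCl 4 h minus untreated) of the 8 measured genes. Black points are mean changes with 95% intervals from limma without the block, and purple symbols are the 4 same-numbered pairs. Of the 8 intervals, those of Srf and Elk4 lie wholly above 0, and the pairs of Elk1, Elk3, Mef2a and Mef2d fall on both sides of it.

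The MEF2 genes had 3 members with their own probe sets, and none passed the test. Mef2c, which is prominent in forebrain excitatory neurons and in microglia, stood at 9.03, 9.79, 10.08 and 9.95 in KCl arrays and at 8.57, 9.49, 9.93 and 9.47 in untreated arrays. All 4 pairs were higher in KCl, by 0.46, 0.30, 0.15 and 0.48, while the array numbered 1 was the lowest of its group in both groups. The log2 change was 0.35 (SE 0.319, 95% interval -0.38 to 1.08, limma adjusted p = 0.796), and under the block the SE was 0.102 with an adjusted p of 0.128. A second Mef2c probe set gave a log2 change of 0.22 (SE 0.218).

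On the arrays numbered 1, on which Mef2c and Elk1 were lowest within each group, the mean of 14 neuronal markers was also lowest, at 9.59 in KCl (9.80 to 10.15 on the other 3) and 9.54 in untreated arrays (9.84 to 10.07). The mean of 8 astrocyte markers was highest there, at 9.20 in KCl (8.71 to 8.91) and 9.51 in untreated arrays (8.73 to 9.06). Their part in the Mef2c and Elk1 values was not tested. Fewer cells of a type and less RNA per cell cannot be told apart in such cultures.

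Mef2d, broadly expressed in neurons, stood at 8.18, 8.42, 8.70 and 8.72 in KCl arrays and at 8.28, 8.38, 8.26 and 8.26 in untreated arrays. The untreated arrays were tightly grouped, and KCl arrays numbered 2, 3 and 4 lay above all 4 of them, number 2 by little, while KCl array 1 lay below all 4. Its log2 change was 0.21 (SE 0.132, 95% interval -0.09 to 0.51, limma adjusted p = 0.619). Another probe set, annotated jointly to Mef2d and 1700113A16Rik, gave a log2 change of 0.07 (SE 0.141), with 2 pairs higher and 2 lower. Its signal cannot be given to either gene.

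Mef2a, known for its part in dendrite and synapse remodelling, was the most even of the 8 genes. It stood at 10.11, 10.20, 9.99 and 10.20 in KCl arrays and at 10.07, 10.31, 10.07 and 10.08 in untreated arrays. Pairs were split between the directions, with 2 higher and 2 lower. The log2 change was -0.01 (SE 0.096, 95% interval -0.23 to 0.21, limma adjusted p = 0.993), the narrowest interval of the 8.

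For Mef2b, 2 probe sets were annotated jointly to Mef2b and Borcs8, so their signal cannot be given to either. One averaged 6.93 ± 0.44 in KCl and 6.86 ± 0.28 in untreated arrays, and the other 3.96 ± 0.26 in KCl and 3.89 ± 0.16 in untreated arrays (SD, n = 4 each). The log2 changes were 0.08 and 0.07, and neither passed in a limma fit over all 34472 probe sets (adjusted p = 0.977 and 0.958).

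Srf had a close companion in Hbegf, a membrane-anchored EGF family growth factor. Over the 8 arrays the 3 genes whose values followed Srf most closely were Hbegf (Pearson r = 0.995), S100a9 (0.981) and Dusp1 (0.977). These arrays share the treatment contrast, which enters this r, and the r is a description. With the group means subtracted, the r was 0.962 for Hbegf, 0.963 for S100a9 and 0.83 for Dusp1. Hbegf stood at 9.87, 10.20, 9.37 and 9.12 in KCl arrays and at 7.73, 7.95, 7.43 and 7.25 in untreated arrays, with the same order of replicate numbers as Srf in the KCl group. It rose 4.14-fold (log2 change 2.05, SE 0.252, limma adjusted p = 0.00662). Dusp1, a MAP kinase phosphatase, averaged 9.24 ± 0.32 in KCl and 7.58 ± 0.44 in untreated arrays (SD, n = 4 each). S100a9, a calcium-binding protein of myeloid cells, stood at 4.03 to 4.29 in KCl and 3.77 to 3.92 in untreated arrays. It did not pass (limma adjusted p = 0.182). These values lie below the mean of the median gene, 4.76. The SD was 0.119 in KCl and 0.074 in untreated arrays, so the r of S100a9 rests on small differences at a low level.

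Among the 8 genes themselves, Srf and Elk4 had a Pearson r of 0.83 over the 8 arrays, but with the group means subtracted the r was 0.07. Elk1 and Mef2c kept a similar r either way, 0.73 over the arrays and 0.79 with the group means subtracted, and both were lowest on the arrays numbered 1. Ets2 and Mef2a stood in opposite order, with an r of -0.84 over the arrays and -0.89 with the group means subtracted. These r values rest on 8 arrays that share 2 groups and 4 replicate numbers, and describe these arrays only.

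Most genes known as targets of SRF with ternary complex factors rose. Of 16 such genes, all measured, 11 rose, 5 missed the threshold and none fell, against 1.34% higher and 1.02% lower over all genes. The folds of those that rose ran from 1.83 to 43.0 (limma adjusted p 0.000166 to 0.046), with that of Fosb the highest, and the list's median log2 change was 1.63. The 4 with the smallest p were AP-1 and Egr factors. Junb averaged 8.92 ± 0.16 in KCl and 6.06 ± 0.30 in untreated arrays, and Egr4 averaged 7.81 ± 0.03 in KCl and 5.53 ± 0.33 in untreated arrays (SD, n = 4 each). Fos averaged 10.41 ± 0.11 in KCl and 6.22 ± 0.67 in untreated arrays, and Fosb 10.52 ± 0.28 in KCl and 5.10 ± 1.00 in untreated arrays (SD, n = 4 each). The other genes that rose were Nr4a1, Mcl1, Ier2, Egr3, Egr2, Btg2 and Ier3. Several of these genes also answer to other factors such as CREB. This list, like those below, was chosen with earlier results of these data known, and its counts are a description.

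Arc, Dusp5, Egr1, Ccn1 and Zfp36 missed the threshold, each higher in 4 of 4 pairs, with limma log2 changes of 1.56, 1.71, 1.26, 1.49 and 0.77 in that order. With the replicate block Dusp5 (adjusted p = 0.00303) and Zfp36 (0.0343) passed, which makes 13, against 2.43% higher over all genes with the block. The count was 7 without KCl replicate 3 or without untreated replicate 4. These 7 were Egr4, Fos, Fosb, Ier2, Junb, Mcl1 and Nr4a1, which passed in every fit with 1 array left out. Egr2, Egr3, Btg2 and Ier3 each missed in some. Btg2 then passed only without untreated replicate 1 (limma adjusted p = 0.00395, otherwise 0.0832 to 0.123). Ier3 passed only without KCl replicate 2 (0.0368) or 4 (0.0448).

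The CArG boxes of these promoters are shown beside those of Srf so that the motif can be compared across genes with different responses. Of the 12 listed targets with promoter windows, Egr2, Dusp5 and Zfp36 held a CArG box. Of 18 cytoskeletal SRF targets with windows 9 did, against 1.81% of all genes with windows. Vcl and Trip6 are shown from that list because their p-values were its smallest. Each line gives the box in capitals with 10 bases on either side, on the strand of the gene (RefSeq, GRCm38.p6). The lines run over chr17:46556225-46556254 and chr17:46556205-46556234 for Srf, chr10:67537484-67537513 and chr10:67537787-67537816 for Egr2, chr19:53529053-53529082 and chr19:53529063-53529092 for Dusp5, chr7:28379267-28379296 for Zfp36, chr14:20929161-20929190 for Vcl and chr5:137314221-137314250 for Trip6.
Srf distal: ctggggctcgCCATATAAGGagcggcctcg
Srf proximal: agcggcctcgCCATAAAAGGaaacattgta
Egr2 first: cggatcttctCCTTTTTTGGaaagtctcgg
Egr2 second: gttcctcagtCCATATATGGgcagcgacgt
Dusp5 first: ggggaaatacCCATATTTGGccttatatgg
Dusp5 second: ccatatttggCCTTATATGGgcactcacgt
Zfp36: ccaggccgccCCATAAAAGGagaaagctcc
Vcl: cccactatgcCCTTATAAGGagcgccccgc
Trip6: gtggtcgtctCCAAAATTGGggaggaaggg

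The proximal Srf box and the Zfp36 box have the same 10 letters in capitals. Among all tested genes with windows, 2.92% of 240 called higher and 1.09% of 184 called lower held a CArG box, against 1.67% of 16990.

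Cytoskeletal genes served by SRF with the myocardin-related factors gave no call. Of 22, all measured, none passed with limma, 2 had an unadjusted p under 0.05 (13% over all genes), and the median log2 change was 0.15. Those 2 were Vcl, which encodes the adhesion protein vinculin, and Trip6, a zyxin family adaptor. Vcl stood at 10.03, 9.90, 9.29 and 9.74 in KCl arrays and at 9.31, 9.20, 8.49 and 8.73 in untreated arrays. All 4 pairs were higher, by 0.70 to 1.01, while KCl array 3 lay just below untreated array 1, so that the groups overlapped. The log2 change was 0.81 (SE 0.223, adjusted p = 0.128), and with the replicate block Vcl passed (adjusted p = 0.0123). Ccn2 also passed with the block (0.0173), but not without it (limma adjusted p = 0.538). With the block and no arrays numbered 1 the adjusted p of Ccn2 was 0.0567. Without the block its log2 change was 1.185, and 0.576 with the mean of all its probe sets. Trip6 stood at 6.11, 5.87, 5.03 and 4.55 in KCl arrays and at 4.87, 4.50, 4.56 and 4.37 in untreated arrays (log2 change 0.82, adjusted p = 0.323).

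The mean of this list differed more between replicate numbers than between groups. It was 7.84 and 7.72 on KCl arrays numbered 1 and 2 and 6.80 and 6.56 on those numbered 3 and 4, against 7.67 and 7.52 and then 6.47 and 6.37 on untreated arrays. The widest spread was in Acta2, the smooth muscle actin gene, chosen after its values were seen. It stood at 10.79, 10.92, 7.13 and 6.68 in KCl arrays and at 11.07, 10.98, 6.59 and 7.18 in untreated arrays. The mean of 7 mural cell and fibroblast markers moved the same way, at 4.95 to 4.97 on KCl arrays numbered 1 and 2 and 4.56 to 4.58 on those numbered 3 and 4, against 4.82 to 5.00 and then 4.45 to 4.53 on untreated arrays. The mean of 6 endothelial markers was likewise split, at 4.57 and 4.66 and then 4.23 and 4.24 on KCl arrays, against 4.47 and 4.58 and then 4.17 and 4.15 on untreated arrays. The split of this endothelial mean came from Kdr, and the other endothelial markers together did not share it. Kdr stood at 7.91, 8.34, 5.62 and 5.18 in KCl arrays and at 7.76, 8.17, 5.42 and 5.48 in untreated arrays. The part of these markers in the list's spread was not tested.

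Of the cofactors and kinases upstream of SRF, none of 10 measured genes passed with limma, 2 had an unadjusted p under 0.05 (13% over all genes), and the median log2 change was 0.01. Those 2 were Mrtfa and Mrtfb, the genes of MRTF-A and MRTF-B, each lower in 4 of 4 pairs. Mrtfa stood at 6.13, 5.97, 6.24 and 6.34 in KCl arrays and at 6.34, 6.82, 6.94 and 6.75 in untreated arrays. The log2 change was -0.54 (SE 0.147, limma adjusted p = 0.118). Mrtfa passed without untreated replicate 1 (adjusted p = 0.0342) and with array weights (0.0486), and in no other alternative. The adjusted p was 0.0749 with the block, 0.274 with trended and robust moderation and 0.327 with repeated quantile normalization. Mrtfb stood at 9.75, 9.52, 9.86 and 9.64 in KCl arrays and at 10.00, 9.70, 10.23 and 10.12 in untreated arrays, a log2 change of -0.32 (SE 0.134, adjusted p = 0.351). With the mean of all Mrtfb probe sets the log2 change was only -0.072 (limma adjusted p = 0.945). The cause of this difference was not tested.

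Among 16 measured regulators of MEF2, Sik1 rose, Ppp3cc fell and 14 did not pass (1.34% higher and 1.02% lower over all genes), with a median log2 change of 0.00. Sik1, a salt-inducible kinase that phosphorylates class IIa histone deacetylases, averaged 8.31 ± 0.18 in KCl and 5.80 ± 0.51 in untreated arrays (SD, n = 4 each), a 5.70-fold rise (adjusted p = 0.0023). Ppp3cc, a catalytic subunit of calcineurin, averaged 7.14 ± 0.11 in KCl and 7.66 ± 0.08 in untreated arrays (SD, n = 4 each), 0.697 of the untreated level (limma adjusted p = 0.025). Its call was lost in each of the 8 fits with 1 array left out (adjusted p 0.0503 to 0.0774) and with the replicate block (0.0509). The other catalytic subunits, Ppp3ca and Ppp3cb, had log2 changes of 0.00 and 0.01. Of the class IIa deacetylases, Hdac5 stood at 9.19, 8.83, 8.85 and 8.57 in KCl arrays and at 8.60, 8.04, 8.09 and 7.61 in untreated arrays, higher in 4 of 4 pairs (log2 change 0.78, adjusted p = 0.125). It passed with the block (adjusted p = 0.0148) and without untreated replicate 1 (0.0426). Hdac4, Hdac7 and Hdac9 had log2 changes of 0.00, 0.12 and 0.09.

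Of 12 measured genes known as neuronal MEF2 targets, 4 rose, 8 missed the threshold and none fell (1.34% higher and 1.02% lower over all genes), with a median log2 change of 1.19. The folds of those that rose ran from 2.36 to 16.2 (limma adjusted p 9.16e-05 to 0.0401). These 4 were the Krüppel-like factors Klf4 and Klf6, the nuclear receptor Nr4a1 and Homer1, a postsynaptic scaffold gene. Klf4 averaged 7.53 ± 0.18 in KCl and 4.43 ± 0.23 in untreated arrays, Klf6 averaged 9.86 ± 0.16 in KCl and 8.62 ± 0.47 in untreated arrays, and Homer1 averaged 9.39 ± 0.52 in KCl and 7.90 ± 0.43 in untreated arrays (SD, n = 4 each). Nr4a1, also in the list of ternary complex factor targets, averaged 10.78 ± 0.16 in KCl and 6.76 ± 0.95 in untreated arrays (SD, n = 4 each). Not all targets stood higher: Lgi1, an epilepsy gene, and Ube3a, the Angelman syndrome ubiquitin ligase, were lower in 4 of 4 pairs, with log2 changes of -0.33 and -0.22 that did not pass (adjusted p = 0.218 and 0.765). The count of 4 fell to 2 without the KCl array numbered 3 or 4, or the untreated array numbered 2 or 4. Klf4 and Nr4a1 were those 2, and passed in every fit with 1 array left out. Homer1 then passed only without KCl replicate 1 (limma adjusted p = 0.0306, otherwise 0.067 to 0.118). It also missed with repeated quantile normalization (0.0529). Klf6 passed only without untreated replicate 1 (0.00939) or 3 (0.0469). Without KCl replicate 2 the count stayed at 4, with Arc and Bdnf in place of Homer1 and Klf6. With the block Jun (adjusted p = 0.0243) and Pcdh10 (0.0269) were added, making 6.

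Other ETS family genes gave no call. None of 21 measured genes passed with limma, 4 had an unadjusted p under 0.05 (13% over all genes), and the median log2 change was 0.10. Its lowest p-values belonged to Erf and Etv3, both repressors. Erf averaged 5.90 ± 0.50 in KCl and 4.84 ± 0.26 in untreated arrays (SD, n = 4 each), with the groups apart (log2 change 1.05, SE 0.245, adjusted p = 0.0707), and it passed without KCl replicate 1 (0.0491), among brighter genes alone (0.045), with array weights (0.0442) and without both arrays numbered 1 (0.0416). Etv3 averaged 6.43 ± 0.59 in KCl and 5.28 ± 0.53 in untreated arrays (SD, n = 4 each), and with the block it passed (log2 change 1.15, adjusted p = 0.153, and 0.0231 with the block).

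**Figure D4:**
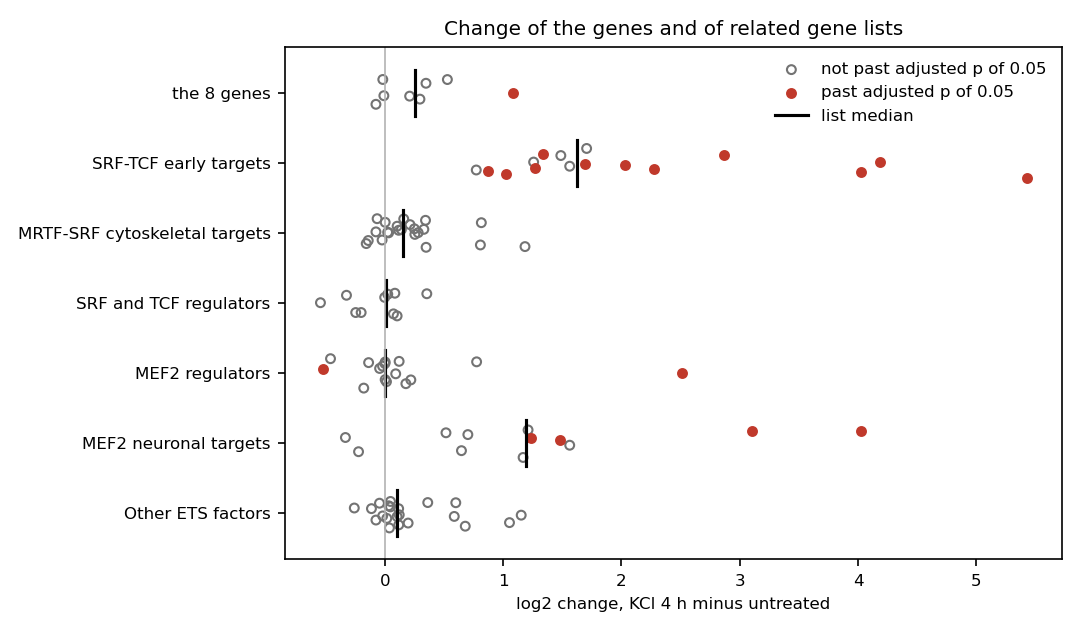
Log2 change (KCl 4 h minus untreated) of the 8 measured genes and of the genes in 6 related lists, 1 point per gene, filled where the adjusted p passed 0.05, with black bars for medians. The medians lie at 1.63 for SRF and ternary complex factor targets and 1.19 for MEF2 targets, and between 0.00 and 0.25 for the other 5 rows.

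The cultures were labelled as hippocampal neurons. Marker means are given to compare arrays and groups within a list, and do not measure the share of a cell type. The mean over 14 neuronal markers was 9.59 to 10.15 in KCl and 9.54 to 10.07 in untreated arrays. Over 8 astrocyte markers it was 8.71 to 9.20 in KCl and 8.73 to 9.51 in untreated arrays, and the glutamate transporter gene Slc1a2 fell (8.09 ± 0.16 in KCl, 8.86 ± 0.31 in untreated arrays, SD, n = 4 each, limma adjusted p = 0.0479). That call was lost with the block (0.062), with median centring (0.0503), repeated quantile normalization (0.0545), trended and robust moderation (0.0519) and all probe sets tested (0.0566), and on leaving out any single array other than untreated replicate 2 (0.0639 to 0.14). No other marker of the 6 cell type lists passed over all 8 arrays without the block, and with it Gad2, an enzyme gene of GABA synthesis, was lower (log2 change -0.49, adjusted p = 0.0458, lower in 4 of 4 pairs). Without the block the limma adjusted p of Gad2 was 0.832, and with the block and no arrays numbered 1 it was 0.113. Gad1, the other such enzyme gene in the list, stood higher in KCl (values below) and passed neither with nor without the block. Single markers of these lists were Stmn2 (12.55 in KCl, 12.64 in untreated arrays), Gad1 (5.69 in KCl, 4.61 in untreated arrays), Slc1a3 (11.19 in KCl, 11.29 in untreated arrays) and S100b (4.79 in KCl, 4.53 in untreated arrays).

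For the other cell types, over 9 microglial markers the mean was 4.16 to 4.45 in KCl and 4.30 to 4.37 in untreated arrays, and over 6 endothelial markers it was 4.23 to 4.66 in KCl and 4.15 to 4.58 in untreated arrays. The microglial gene Cx3cr1 averaged 5.30 in KCl and 5.38 in untreated arrays, and Itgam averaged 3.72 in KCl and 3.67 in untreated arrays. The endothelial gene Kdr, split by replicate number as above, averaged 6.76 in KCl and 6.71 in untreated arrays, and Tek averaged 3.76 in KCl and 3.81 in untreated arrays. The oligodendrocyte lineage list lay at 4.87 to 5.11 in KCl and 4.89 to 5.04 in untreated arrays, with Olig1 at 7.26 in KCl and 7.33 in untreated arrays and Pdgfra at 3.71 in KCl and 3.73 in untreated arrays. Of the mural cell and fibroblast list, Rgs5 averaged 5.71 in KCl and 5.79 in untreated arrays, and Lum averaged 3.79 in KCl and 3.80 in untreated arrays. The first principal component of all genes (36.6% of the variance) spread the arrays by replicate number. Those numbered 1 lay at -48.6 and -43.2, those numbered 2 at -4.6 and -2.1, and those numbered 3 and 4 at 20.6 to 26.6. The second component (27.1%) separated KCl from untreated arrays.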

How the data were processed

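The authors hybridized total RNA from 8 cultures to Affymetrix arrays (WT Plus labelling, per the labels' protocols), 4 after KCl and 4 untreated. The authors deposited log2 values per probe set, made by RMA in Partek, per the submitters' processing notes. The version, and whether batches were adjusted, are not given in the sources used here. No array held the same values as another. Nothing states that same-group arrays differ beyond their mouse numbers, and p-values measure the spread between these arrays.

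Of 34472 probe sets, 23521 have 1 gene symbol in the platform annotation, 1814 several and 9137 none. The probe set with the highest mean stood for a gene, and 21994 of 22180 genes matched the RefSeq table. Fits used lmFit and eBayes of limma 3.58.1 (R 4.3.3) over all 22180 genes without a block, with Benjamini-Hochberg adjustment and a threshold of 0.05. The procedure was tested on simulated data. Arrays with the same number deviated together (correlations 0.64, 0.23, 0.41 and 0.37 for numbers 1 to 4). Number 2 lay below the highest correlation between a KCl and an untreated array of different numbers, which was 0.3. Each of the 8 arrays matched its own number best, so the numbers were taken to pair the arrays. This rests on the data, since no litter or culture day is named in the labels. The number of arrays limits precision.

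The 9 genes and the lists were chosen with earlier results of these data known. Named genes were all 9, for each list the 4 of smallest p among those past the threshold (or, where fewer than 2 passed, the 2 of smallest p), for Srf the 3 genes of highest correlation (no Gm or Rik symbols), and the lowest and highest gene of every marker list. Other genes were named to complete a count or after their values were seen. Promoter windows came from RefSeq (GRCm38.p6) and were searched in Python 3.11.15. Alternatives were the block, repeated quantile normalization, median centring, brighter genes alone, other choices of probe set, trended and robust moderation, array weights, and arrays left out.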

Additional observations from a re-analysis of the deposited data

Results flagged for a closer look

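A single untreated array stood apart from its group for 2 of the 8 measured genes, and in both cases it was the array numbered 2. Mef2a stood at 10.31 on that array, against 10.07 to 10.08 on the other 3 untreated arrays, a gap of 0.957 of the group's range (above Dixon's 95% limit for 4 samples). Mef2d stood at 8.38 there, against 8.26 to 8.28 on the other 3, a gap of 0.864 of the range. Of 16 gene and group combinations examined, 2 passed this limit, and about 5% would by chance. Without that array the log2 change was 0.05 for Mef2a, and neither gene passed the test in any alternative.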

How the results depend on the processing

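Over 18 alternatives, Ets2, Mef2c and Mef2d kept their direction and did not pass, and Srf passed in 17, its log2 change lying between 0.97 and 1.18 with any 1 array removed. Srf missed the threshold without untreated replicate 3 (1.02, adjusted p = 0.0501). With repeated quantile normalization Elk4 passed (0.62), which made 2 of the 8 genes higher, and leaving out single arrays gave 0 to 1. Lower calls were 0 throughout. Elk1 changed sign with quantile normalization (0.001), without KCl replicate 1 (0.045) or 3 (0.033), and without untreated replicate 2 (0.017), 3 (0.116) or 4 (0.106), between -0.31 and 0.12 over the arrays left out. Elk3 changed sign with array weights (0.038), without KCl replicate 1 (0.100) and without both arrays numbered 1 (0.166, also with the block), between -0.24 and 0.10 over single arrays. Mef2a changed sign without KCl replicate 3 (0.036) or untreated replicate 2 (0.052), between -0.032 and 0.05. None of these 3 passed anywhere, and the cause was not tested.

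Over all genes, the replicate block gave 539 higher and 446 lower (main 297 and 227), trended and robust moderation gave 150 lower, and single arrays left out gave 118 to 254 higher and 68 to 247 lower. Called genes were 7 to 10 for ternary complex factor targets, 0 for cytoskeletal targets, 0 to 1 for SRF regulators, 1 to 2 for MEF2 regulators, 2 to 4 for MEF2 targets and 0 to 1 for other ETS genes with single arrays left out. Cytoskeletal targets had 2 with the block and 1 with the block and no arrays numbered 1. SRF regulators had 1 with array weights. MEF2 regulators had 1 with quantile normalization, with brighter genes alone, with trended and robust moderation and without both arrays numbered 1. Other ETS genes had 1 with the block (Etv3), and 1 (Erf) with brighter genes alone, with array weights and without both arrays numbered 1, with or without the block. The block changed no call among the 8 genes. Low probe sets limit what a small change can show, and 4 arrays a group leave median SEs of 0.142 without and 0.119 with the block.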

Other observations

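Over all called genes with windows, those of the lists included, promoter letters differed between the genes called higher and lower, given here as counts with no test. The cAMP response element TGACGTCA, the site of CREB, stood in windows of 25 of 240 genes called higher (10.4%) and 8 of 184 called lower (4.35%), against 2.65% of 16990 tested genes with windows. The ETS core CCGGAA stood in 54 of 240 genes called higher (22.5%) and 80 of 184 called lower (43.5%), against 20.6% of the tested genes. The MEF2 site stood in 4.17% of genes called higher and 1.63% of those called lower, against 3.14%. Of 11 neuronal MEF2 targets with windows, Jun and Klf2 held a MEF2 site. Neither passed in the main limma fit, over all 8 arrays without the block (adjusted p = 0.0586 for Jun). Jun passed in some alternatives, with and without the block, with adjusted p down to 0.0243.

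Several SRF targets were split by replicate number in both groups. Tagln, which encodes the actin-binding protein transgelin, stood at 7.11, 7.86, 4.79 and 4.51 in KCl arrays and at 8.22, 7.93, 4.51 and 4.24 in untreated arrays. Ccn1, a matricellular protein gene, stood at 10.79, 10.78, 8.95 and 8.78 in KCl arrays and at 10.07, 9.78, 6.22 and 7.28 in untreated arrays. Both were chosen after their values were seen.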
